A study of Homo sapiens with 9 samples.

Results

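Cells recognise DNA and RNA in the wrong place with a small set of cytosolic receptors, and 10 genes of that set were followed here across the 9 RNA sequencing libraries of an esophageal cell line. The genes were listed by name for their known function, with earlier results of these data known but no measured value in the rule: MB21D1, TMEM173, IFI16, AIM2 and TREX1 on the DNA side, DDX58, IFIH1 and MAVS on the RNA side, and TBK1 and IRF3, which serve both. All 10 are among the 64253 genes in the count table, and 9 of them were among the 16366 genes with enough reads to be tested.

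The cells were EPC2, a human line labelled as normal squamous epithelium of the esophagus, used within 5 passages after receipt. Untreated cells (Ctrl), cells given an empty vector with Lipofectamine 2000 (Lipo) and cells given a FOXF1 plasmid with the same reagent (Fox) contributed 3 libraries each, described as biological triplicates. FOXF1 encodes a forkhead transcription factor, and the comparisons ask what its overexpression changed and what transfection changed without it. The design text describes the Lipo group as transfected with empty vector, whereas the growth protocol speaks only of cells treated with lipofectamine, so the reagent and the DNA cannot be told apart in the comparison with untreated cells. The labels used here give neither the time after transfection nor the share of cells that took up plasmid, and every level is an average over all cells of a culture, in which fewer expressing cells and less RNA per cell cannot be told apart.

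MB21D1 encodes cGAS, an enzyme that binds double-stranded DNA in the cytosol and makes the cyclic dinucleotide cGAMP. cGAMP binds STING, the product of TMEM173, on the endoplasmic reticulum, and STING then recruits the kinase TBK1, which phosphorylates the transcription factor IRF3. RIG-I (DDX58) and MDA5 (IFIH1) bind double-stranded or uncapped RNA and signal through MAVS on mitochondria to the same kinase and factor, and activated IRF3 turns on IFNB1, the interferon beta gene. IFI16 and AIM2 are related DNA binding proteins, of which AIM2 builds an inflammasome, and TREX1 is an exonuclease that degrades cytosolic DNA. Plasmid delivered with lipid is a classical ligand of the DNA branch, and many cultured lines have lost part of it.

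Library totals ran from 34390666 to 39973289 counts, and levels are given as CPM, the reads of a gene scaled by library size, which is corrected for composition by edgeR's TMM factors except where the library total is named. For a gene with 0 reads, an upper limit of 3 counts corresponds to 0.0751 to 0.0872 CPM of the library total. FOXF1 had 0 to 1 reads in Ctrl, 0 to 6 in Lipo and 141 to 367 in Fox libraries. Mitochondrial transcripts took 20.9% ± 2.003 (SD, n = 3) of the counts in Ctrl, 11.2% ± 0.759 in Lipo and 14.1% ± 0.518 in Fox, and this share moved with every comparison to untreated cells. Of the markers that define squamous epithelium, TP63 and SOX2 had no read, KRT5 had 8 to 19 reads per library and KRT14 0 to 4, whereas the simple-epithelial keratins KRT8 and KRT18 averaged 1396 and 1277 CPM of the library total. Of the other squamous markers, PAX9, a factor of esophageal epithelium, had 525 to 857 reads and KRT6A 23 to 67. KRT15 had 1 to 16 reads, KRT4 and DSG3 each 0 to 4 and KRT13 0 to 2. The epithelial genes EPCAM and CDH1 had 150 to 224 and 294 to 492 reads. The defining basal squamous markers TP63, SOX2 and KRT14 were thus at or near 0 while PAX9 was present, and the cells are called EPC2 here by their label. Of 15 leukocyte markers 7 had no read (PTPRC, LYZ, CD3E, MS4A1, NKG7, FCGR3A and TYROBP) and CD14 alone passed 1 CPM. The summed leukocyte level was 8.01 to 9.65 CPM of the library total in Ctrl, 11.2 to 12.0 in Lipo and 11.1 to 12.5 in Fox. Of 12 fibroblast markers COL1A2 and LUM had no read, and the summed level was 2298 to 2644, 3064 to 3080 and 2990 to 3274 CPM of the library total in the same order. COL1A1, THY1 and FBLN1 made up most of that sum, and 7 of the 12 stayed below 1 CPM in every library. The part of these shifts in the results on the 10 genes was not tested.

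Per length, the adaptors and the transcription factor stood highest in untreated cells, and the receptors and the kinase TBK1 stood lower. STING (TMEM173, ENSG00000184584; GRCh38 chromosome 5, 139475534 to 139482935, minus strand) stood highest at 52.9 ± 1.72 RPKM (read counts scaled by merged exon length and library size; mean ± SD, n = 3), above 95.2% of the 16222 tested genes with a known length. IRF3 (ENSG00000126456; chromosome 19, 49659569 to 49665875, minus strand) followed at 44.9 ± 3.51 RPKM, above 94.2% of them. MAVS (ENSG00000088888; chromosome 20, 3846799 to 3876123, plus strand) was the third at 7.91 ± 0.0543 RPKM. All 3 are signalling proteins that act below a receptor, but TBK1, which also does, stood far lower at 0.325 RPKM.

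The receptors came next in the order per length. IFI16 (ENSG00000163565; chromosome 1, 158999968 to 159055155, plus strand) had 1.92 ± 0.215 RPKM, near the middle of all tested genes with 52.3% below it. cGAS (MB21D1, ENSG00000164430; chromosome 6, 73413515 to 73452276, minus strand) had 0.784 ± 0.109 RPKM, above 36.1% of tested genes. The ranges over untreated libraries of these neighbours in the order did not overlap.

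Below cGAS lay 3 genes that could not be ordered, because their untreated libraries overlapped: MDA5 (IFIH1, ENSG00000115267; chromosome 2, 162267079 to 162318703, minus strand) at 0.333 ± 0.135 RPKM, TBK1 (ENSG00000183735; chromosome 12, 64451880 to 64502108, plus strand) at 0.325 ± 0.110 RPKM, and TREX1 (ENSG00000213689; chromosome 3, 48465811 to 48467645, plus strand) at 0.321 ± 0.120 RPKM. RIG-I (DDX58, ENSG00000107201; chromosome 9, 32455705 to 32526324, minus strand) was lowest among the detected genes at 0.118 ± 0.0144 RPKM, above 8.58% of tested genes. AIM2 (ENSG00000163568; chromosome 1, 159062484 to 159147096, minus strand) had no read in any of the 9 libraries. Over the 344360674 counts of all libraries together, 0 reads allow an AIM2 level of up to 0.00871 CPM of the library total, for counting error only.

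**Figure D1:**
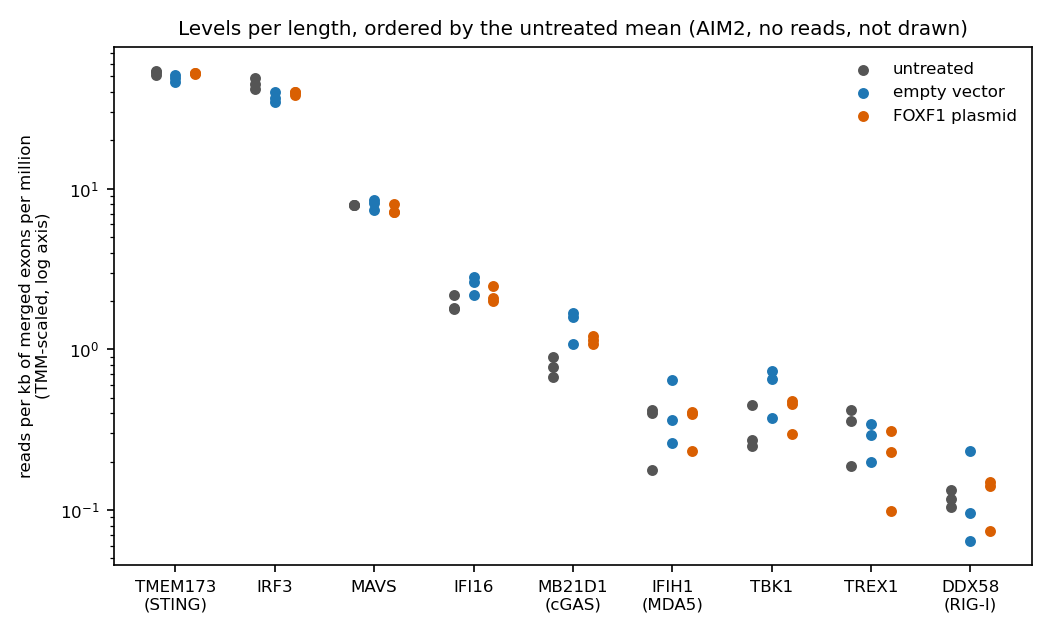
Level of each detected gene in RPKM on a log axis, with 1 point per library and groups by colour, ordered by the untreated mean. TMEM173 and IRF3 lie near 50, MAVS near 8, and the kinase TBK1 and the RNA receptors IFIH1 and DDX58 below 1 in every library.

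In untreated cells STING mRNA thus exceeded cGAS mRNA 67.5-fold per length, and IRF3 mRNA exceeded that of its kinase TBK1 138-fold. The ratio of STING to cGAS was 33.5 in Lipo and 45.5 in Fox, and the ratio of IRF3 to TBK1 was 63.1 and 96.1. On the RNA side the ratio of MAVS to MDA5 was 23.8, 18.9 and 21.4 in Ctrl, Lipo and Fox, and the ratio of MAVS to RIG-I was 66.9, 61.0 and 61.2. These are ratios of mRNA levels between group means and were not tested.

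Some of these genes share exons with others, which limits what their counts show. All 1515 exon bases of TREX1 lie within exons of ATRIP on the same strand, so TREX1 reads cannot be told apart from ATRIP reads by position, and its level is uncertain. ATRIP, a partner of the checkpoint kinase ATR, had 449 to 617 reads per library against 6 to 23 for TREX1. IRF3 shares 734 exon bases, 19.3% of its total, with BCL2L12 on the opposite strand. TBK1 shares 702 bases, 14.7%, with an antisense gene that had 0 to 2 reads, and MB21D1 shares 180 bases, 4.33%, with DDX43, which had no read. The library kit keeps strand, but whether the counting used it is not given in the sources used here.

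Promoters from RefSeq (build GRCh38.p14, from 250 bases before to 50 bases after the RefSeq start site) were found for 7 of the 10 genes. MB21D1, TMEM173 and IRF3 had no entry in the table. For IFI16 and AIM2 the windows lie inside the gene coordinates given above, away from their outer starts. There they describe 1 start site and not the outer start of the gene. The TBK1 window begins at 64451870, just before the gene start at 64451880, so most of it also lies inside the gene. Shown here are the promoters of IFI16 and TBK1, 2 of the 3 genes called higher with the empty vector. Also shown are those of IFIH1 and AIM2, the members that matched the core of the interferon-stimulated response element. That core is 2 repeats of GAAA separated by any 2 bases, searched on both strands. Capitals mark the matches, and a match on the other strand reads as the reverse complement.
IFI16, chr1:159009657-159009956, plus strand: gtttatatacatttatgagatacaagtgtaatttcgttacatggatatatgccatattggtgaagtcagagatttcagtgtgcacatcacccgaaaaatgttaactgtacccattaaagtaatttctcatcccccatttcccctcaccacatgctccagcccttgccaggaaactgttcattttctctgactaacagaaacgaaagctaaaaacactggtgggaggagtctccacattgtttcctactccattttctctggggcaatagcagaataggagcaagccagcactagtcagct
TBK1, chr12:64451870-64452169, plus strand: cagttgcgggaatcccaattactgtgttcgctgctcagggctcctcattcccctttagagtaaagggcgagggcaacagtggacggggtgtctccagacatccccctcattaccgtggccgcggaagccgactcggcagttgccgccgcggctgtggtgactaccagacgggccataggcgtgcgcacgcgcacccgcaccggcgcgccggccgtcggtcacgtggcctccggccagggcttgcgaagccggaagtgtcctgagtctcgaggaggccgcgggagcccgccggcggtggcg
IFIH1, chr2:162318635-162318934, minus strand: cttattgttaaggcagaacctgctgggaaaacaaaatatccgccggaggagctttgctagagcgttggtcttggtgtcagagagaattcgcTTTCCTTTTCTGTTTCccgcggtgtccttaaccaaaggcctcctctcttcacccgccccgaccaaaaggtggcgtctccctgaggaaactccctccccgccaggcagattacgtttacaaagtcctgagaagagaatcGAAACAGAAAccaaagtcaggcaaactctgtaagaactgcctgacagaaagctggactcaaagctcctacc
AIM2, chr1:159076717-159077016, minus strand: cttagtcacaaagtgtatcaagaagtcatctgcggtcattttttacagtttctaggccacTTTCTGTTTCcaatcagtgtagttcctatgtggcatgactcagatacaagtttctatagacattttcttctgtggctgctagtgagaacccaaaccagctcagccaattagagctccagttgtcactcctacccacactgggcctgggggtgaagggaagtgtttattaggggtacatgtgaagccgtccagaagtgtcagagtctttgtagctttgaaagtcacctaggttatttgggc
The IFIH1 promoter held 3 matches, 2 of which overlap, and the AIM2 promoter held 1. None was found in the promoters of IFI16, TBK1, TREX1, DDX58 or MAVS, while 3.57% of the 35116 promoters in the table held at least 1 match. The letters TGATGNAA, an ATF4-type element, occurred in none of the 7 promoters and in 3.62% of all. The IFI16 promoter was 41.7% G and C and the TBK1 promoter 68.3%, against a median of 58.7% over all promoters. A match describes letters in this window and says nothing of binding.

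With the empty vector, cGAS, IFI16 and TBK1 mRNA were higher than in untreated cells, IRF3 mRNA was lower, and the other 5 tested genes did not pass the test. These 4 of 9 (44.4%) stand against 19.6% of all tested genes called in this comparison by edgeR's quasi-likelihood test at an adjusted p below 0.05, of which 10.2% of tested genes were called higher and 9.37% lower. The median log2 fold change of the 9 genes was 0.16, against 0.044 over all tested genes. In 3 of the 9 (MB21D1, IFI16 and IRF3) the libraries of the compared groups did not overlap. The same held for 46 of the 140 tested genes of the pathway lists described below. The share without overlap over all tested genes was not counted.

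cGAS showed the clearest change. Its level was 3.24, 2.81 and 3.72 CPM in the untreated libraries, 4.52, 6.58 and 7.02 CPM in the empty vector libraries and 4.50, 5.03 and 4.75 CPM in those with the FOXF1 plasmid. All 6 transfected libraries lay above every untreated library, and replicate 1 was the lowest of the empty vector group. The means were 3.26 ± 0.452 CPM untreated and 6.04 ± 1.34 CPM with the empty vector (SD, n = 3), a 1.86-fold rise with a 95% interval of 1.45 to 2.39. The log2 fold change was 0.89 ± 0.18 (SE), with an adjusted p of 0.000713 by edgeR's quasi-likelihood test. The call held under all 18 alternative settings, with log2 fold changes from 0.77 to 1.14. It rested on 102 to 131 reads per library in untreated cells and 179 to 302 with the empty vector.

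**Figure D2:**
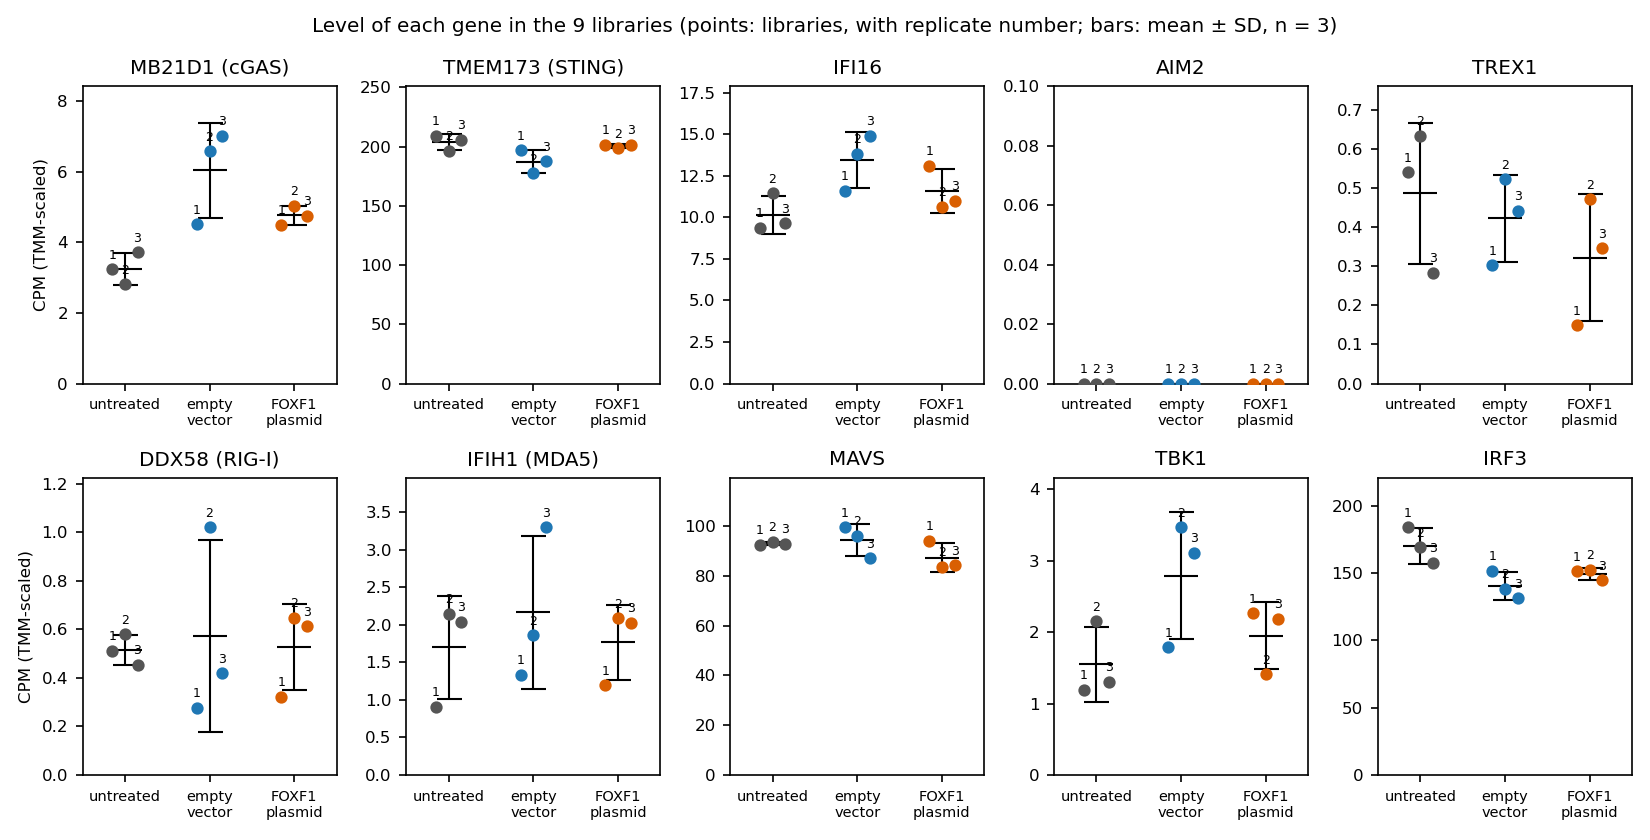
CPM on TMM-scaled library sizes of each of the 10 genes, with 1 point per library, its replicate number, and the mean ± SD of each group (n = 3), on linear axes from 0. MB21D1 lies between 2.81 and 3.72 in untreated cells and between 4.50 and 7.02 in all 6 transfected libraries; IRF3 lies lower in all 6, and AIM2 is at 0.

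IFI16 rose by a smaller amount. The untreated libraries had 9.38, 11.5 and 9.64 CPM, the empty vector libraries 11.6, 13.8 and 14.9 CPM, and the FOXF1 plasmid libraries 13.1, 10.7 and 11.01 CPM. The untreated and empty vector groups met almost edge to edge, at 11.47 and 11.61 CPM, without overlap. The mean rose from 10.2 ± 1.14 to 13.5 ± 1.69 CPM, a log2 fold change of 0.41 ± 0.13 with an adjusted p of 0.0222 by edgeR's quasi-likelihood test (95% interval of the fold 1.12 to 1.57).

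TBK1 had the other large fold change, from few reads. Its level was 1.19, 2.15 and 1.31 CPM in Ctrl, 1.79, 3.47 and 3.12 CPM in Lipo and 2.26, 1.41 and 2.19 CPM in Fox. Untreated replicate 2 lay above empty vector replicate 1, so the groups overlapped. The log2 fold change of 0.85 ± 0.28 had an adjusted p of 0.0294 by edgeR's quasi-likelihood test, on 42 to 78 reads per untreated library and 71 to 153 with the empty vector. The interval of the fold, 1.23 to 2.63, was wide.

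The calls of IFI16 and TBK1 depended on single libraries, and were lost in the same settings. Without untreated replicate 1 their log2 fold changes were 0.34 and 0.68 (adjusted p 0.111 and 0.137, edgeR), and without untreated replicate 3 they were 0.36 and 0.73 (0.0827 and 0.101). Without empty vector replicate 2 they were 0.39 and 0.66 (0.0837 and 0.183), and without replicate 3 of that group 0.33 and 0.77 (0.124 and 0.108). With offsets for GC content and transcript length they were 0.22 and 0.66 (0.14 and 0.0641), and in the remaining 13 of 18 alternatives both kept their calls. The longest transcripts of IFI16 and TBK1 are 38.6% and 39.3% G and C, against a median of 49.8% among tested genes, while those of cGAS and IRF3 are 43.6% and 59.0%. Empty vector replicate 1 was the lowest of its group for cGAS, IFI16, TBK1, DDX58, IFIH1 and TREX1.

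IRF3 fell. The untreated libraries had 184, 169 and 158 CPM, the empty vector libraries 152, 138 and 131 CPM, and the FOXF1 plasmid libraries 152, 153 and 145 CPM. All 6 transfected libraries lay below every untreated library. The means were 170.3 ± 13.3 and 140.5 ± 10.4 CPM (SD, n = 3), a log2 fold change of -0.28 ± 0.07 with an adjusted p of 0.0038 by edgeR's quasi-likelihood test (fold 0.825, 95% interval 0.752 to 0.905). IRF3 kept its call in 17 of 18 alternatives and in all 9 fits that left out a library.

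The alternative that ended the IRF3 call was scaling by library totals alone, in which the log2 fold change was -0.03 (adjusted p 0.714, edgeR). That scaling moved the median of all tested genes by 0.245 on the log2 scale, and the share of called genes that were higher from 52.2% to 94.4%. Relative to the median of all genes, IRF3 stood at -0.32 under both scalings, cGAS at 0.85 under both, TBK1 at 0.81 and 0.82, and IFI16 at 0.36 and 0.37. MAVS, at 0.26 under library totals (adjusted p 0.00596), stood at -0.03 relative to the median under both. A change of scaling moves all genes by nearly the same amount. These matches were therefore fixed in advance and do not decide between the scalings. Mitochondrial reads, 20.9% of counts in untreated cells and 11.2% with the empty vector, moved with this difference between scalings. BCL2L12, which shares exon bases with IRF3 on the other strand, had 2066 to 2429 reads per library and a log2 fold change of -0.30 ± 0.07 (adjusted p 0.00287) in the same comparison.

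STING, the abundant adaptor of cGAS, was 209, 196 and 206 CPM in Ctrl, 197, 177 and 188 CPM in Lipo and 202, 199 and 202 CPM in Fox. The untreated and empty vector groups overlapped, and the log2 fold change of -0.12 ± 0.06 did not pass the test (adjusted p 0.18 by edgeR's quasi-likelihood test), with a 95% interval of the fold from 0.845 to 1.00. By library totals the value was 0.12, the opposite sign. The FOXF1 plasmid libraries were the tightest of the groups, with a coefficient of variation of 0.777%.

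MAVS, the corresponding adaptor of the RNA receptors, had 92.6, 93.8 and 92.9 CPM in Ctrl, 99.6, 96.2 and 87.2 CPM in Lipo and 94.1, 83.7 and 84.3 CPM in Fox. The Lipo libraries lay on both sides of the narrow untreated range. In that comparison the log2 fold change was 0.02 ± 0.07 (adjusted p 0.89 by edgeR's quasi-likelihood test), and the 95% interval of the fold ran from 0.924 to 1.11.

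The RNA receptors were too scarce for so narrow an interval. MDA5 had 32, 78 and 72 reads in the Ctrl libraries, 53, 82 and 142 in Lipo and 48, 71 and 76 in Fox. Replicate 1 was the lowest in every group, and the groups overlapped. The log2 fold change with the empty vector was 0.35 ± 0.32 (adjusted p 0.497 by edgeR's quasi-likelihood test), and without empty vector replicate 3 it was -0.09.

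RIG-I had 18, 21 and 16 reads in Ctrl, 11, 45 and 18 in Lipo and 13, 22 and 23 in Fox. The 45 reads of empty vector replicate 2 were the highest of all 9 libraries, and without that library the log2 fold change of 0.16 ± 0.49 (adjusted p 0.864 by edgeR's quasi-likelihood test) became -0.56. The 95% interval of the fold was 0.578 to 2.16, and changes within it were not detectable at this depth.

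TREX1, the exonuclease that removes cytosolic DNA, had 19, 23 and 10 reads in Ctrl, 12, 23 and 19 in Lipo and 6, 16 and 13 in Fox. The groups overlapped, with a log2 fold change of -0.20 ± 0.51 with the empty vector (adjusted p 0.839 by edgeR's quasi-likelihood test). ATRIP, whose exons cover it, had -0.13 ± 0.12 (adjusted p 0.526). AIM2 remained without a read in transfected cells.

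**Figure D3:**
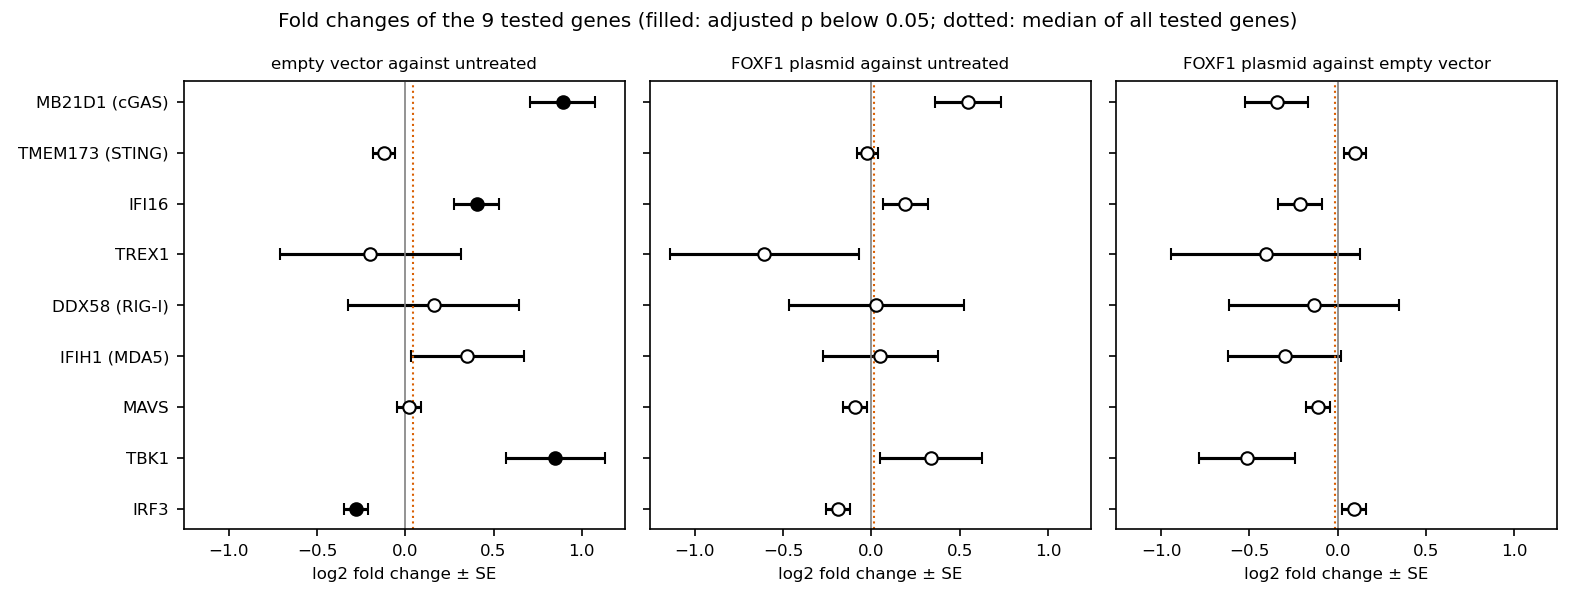
Log2 fold change ± SE of the 9 tested genes in the 3 comparisons, filled where the adjusted p was below 0.05, with the median of all tested genes as a dotted line. MB21D1, IFI16, TBK1 and IRF3 are filled for the empty vector against untreated cells, and no gene is filled in the comparisons with the FOXF1 plasmid.

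With the FOXF1 plasmid none of the 9 tested genes was called against untreated cells by edgeR's quasi-likelihood test, DESeq2 or limma-voom, where 8.52% of all tested genes were called by edgeR (4.63% higher and 3.89% lower). At an unadjusted p below 0.05, 2 of the 9 passed, MB21D1 and IRF3, as did 46 of the 140 tested pathway genes. Without overlap between the groups were 43 of those 140. Neither share was counted over all tested genes. cGAS had 4.76 ± 0.267 CPM against 3.26 ± 0.452 untreated, without overlap, a log2 fold change of 0.55 ± 0.19 with an adjusted p of 0.0661 (95% interval of the fold 1.13 to 1.88). It was called by library totals (0.69) and without empty vector replicate 1, a library that enters only the estimate of spread and the scaling. IRF3 had 149.5 ± 4.33 CPM against 170.3 ± 13.3, also without overlap, a log2 fold change of -0.19 ± 0.07 with an adjusted p of 0.0875. It was called without a filter on low counts (-0.20), with GC and length offsets (-0.21) and without untreated replicate 3.

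The other members had smaller values or wide errors in that comparison, all by edgeR's quasi-likelihood test. IFI16 was at 0.19 ± 0.13 (adjusted p 0.412), with 1 of 3 plasmid libraries above every untreated library, and TBK1 at 0.34 ± 0.29 (adjusted p 0.54), with 2 of 3 above. STING was at -0.02 ± 0.06 (adjusted p 0.883; 95% interval of the fold 0.905 to 1.07) and MAVS at -0.09 ± 0.07 (adjusted p 0.472; 0.856 to 1.03). TREX1 was at -0.61 ± 0.54, MDA5 at 0.05 ± 0.33 and RIG-I at 0.03 ± 0.50, with adjusted p from 0.56 to 0.986. The median over the 9 genes was 0.027, against 0.016 over all tested genes. This comparison shares its untreated libraries with that of the empty vector, so the values of both stand side by side and are not independent.

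Between Fox and Lipo, which by the design text differ in the FOXF1 insert, none of the 9 genes was called, at an unadjusted p below 0.05 or by DESeq2 or limma-voom either, where 0.055% of all tested genes were called by edgeR's quasi-likelihood test. The log2 fold changes of the genes called with the empty vector were -0.35 ± 0.18 for cGAS (adjusted p 0.559), -0.51 ± 0.27 for TBK1 (adjusted p 0.565), -0.21 ± 0.13 for IFI16 (adjusted p 0.621) and 0.09 ± 0.07 for IRF3 (adjusted p 0.725). The 95% intervals of the fold were 0.617 to 1.00, 0.484 to 1.02, 0.727 to 1.02 and 0.970 to 1.17 in that order, and differences within them were not detectable here. Those genes were called from the same empty vector libraries, so their opposite signs here are not independent of the calls. STING, at 0.10 ± 0.06 (adjusted p 0.653), had all 3 plasmid libraries above all 3 empty vector libraries. Of the 140 tested pathway genes 16 were also without overlap, in either direction, and the share over all genes was not counted. The remaining 4 genes lay between -0.41 for TREX1 and -0.11 for MAVS, with adjusted p from 0.647 to 0.957. The median of the 9 was -0.214, against -0.014 over all tested genes.

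**Figure D4:**
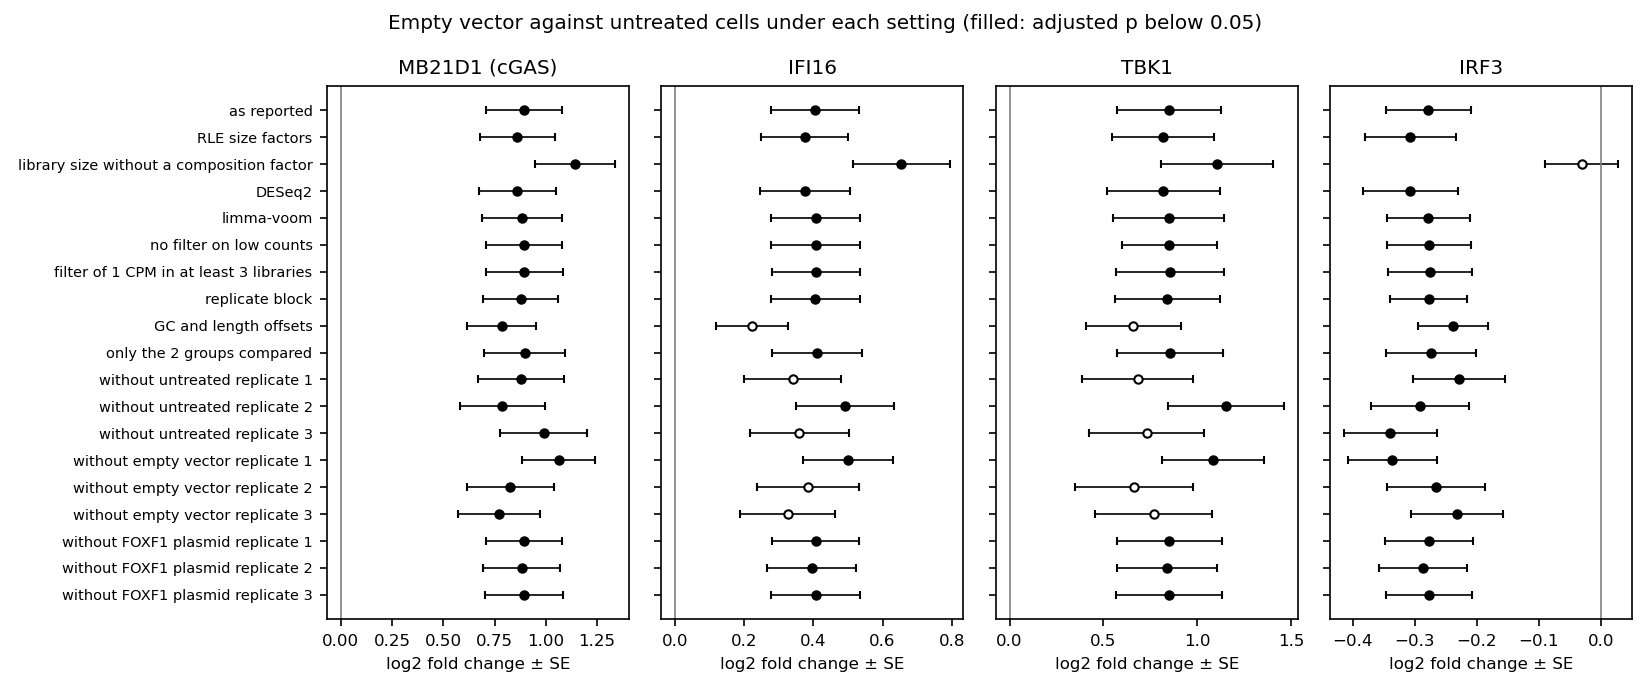
Log2 fold change ± SE of the 4 called genes in the empty vector comparison under each setting, filled where the adjusted p was below 0.05. MB21D1 is filled throughout, IRF3 in all settings except scaling by library size alone, and IFI16 and TBK1 lose their fill in the same 5 settings.

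For each called gene the genes of most similar profile over the 9 libraries were listed by Pearson's r of log2 CPM, as a description; the libraries fall into 3 groups and share their scaling. For cGAS they were IGFBP7 (0.974), a secreted protein that binds insulin-like growth factors, and GJC1 (0.973), a connexin. For IFI16 they were AGPAT5 (0.993), an acyltransferase of phospholipid synthesis, and DUSP10 (0.977), a MAP kinase phosphatase. For TBK1 they were GPATCH2L (0.976) and the translation factor EIF4B (0.972), and for IRF3 the ubiquitin conjugating enzyme CDC34 (0.995) and the ribosome biogenesis factor BOP1 (0.989). No member of the set was among them.

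The wider pathway was read through 7 lists with 165 genes, of which 140 were tested. With the empty vector 39 of the 140 (27.9%) were called by edgeR's quasi-likelihood test, 22 higher and 17 lower, against 19.6% of all tested genes, and their median log2 fold change was 0.047, against 0.044 over all. By library totals 67 were called, 65 of them higher, where 37% of all tested genes were called. Of the 22 higher calls all were kept under that scaling, and of the 17 lower calls 2 were kept (IFITM2 and ISG15), while 6 took the opposite sign. The number called was 23 without untreated replicate 1, and 25 without replicate 2 or 3 of the empty vector group. Those fits called 12.8%, 12.5% and 13.7% of all tested genes in that order. Of the 39 calls 17 held with each of the 9 libraries left out in turn. With GC and length offsets 31 of the 39 were kept, and of the genes named here MRE11A, OAS3, SCAP, NLRX1, ITCH and IFIT3 were not. DESeq2 kept 33, without MRE11A, HMGB1, NLRP3, ITCH and IFIT3 among the named genes, and MRE11A, NLRP3, OAS3, SCAP, ITCH and IFIT3 each lost the call in at least 1 further setting; the replicate block ended that of IFIT3 (0.65, adjusted p 0.0538).

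Among other DNA sensors and inflammasome genes, 5 of 17 were higher and 1 was lower, 35.3% of those tested against 19.6% of all genes. The chromatin protein HMGB1 rose from 56.6 ± 10.3 to 80.1 ± 11.6 CPM, by 0.50 on the log2 scale (adjusted p 0.0011 by edgeR), and this call held with each library left out but not by DESeq2 (0.47, adjusted p 0.0527). The inflammasome receptor NLRP3 (0.60, adjusted p 0.0487) and the DNA repair nuclease MRE11A (0.39, adjusted p 0.0417) were also higher. NLRP3 lost its call without untreated replicates 2 or 3, empty vector replicates 2 or 3 or any FOXF1 plasmid library, and MRE11A without any untreated library, empty vector replicates 2 or 3 or FOXF1 plasmid replicate 3. The pore-forming protein GSDMD, at 191 ± 13.3 CPM against 228 ± 14.3, fell by 0.25 on the log2 scale (adjusted p 0.00659), a call that was lost without untreated replicate 1 and by library totals. HMGB1 has near-identical copies elsewhere in the genome, so its reads are uncertain.

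Among 20 tested partners of RNA sensing, 3 were higher and 2 lower (25%, against 19.6% of all tested genes). TOMM70A, a mitochondrial import receptor that binds MAVS, rose from 16.6 ± 1.78 to 26.0 ± 3.60 CPM (0.65, adjusted p 6.83e-05 by edgeR), and the helicase DHX9 from 50.8 ± 6.13 to 68.0 ± 7.003 CPM (0.42, adjusted p 0.000776). IFIT1, an interferon-induced protein that binds uncapped RNA, rose by 1.33 on the log2 scale (adjusted p 0.00943) from 0.786 ± 0.398 CPM, and lost its call without untreated replicate 1 or without replicate 2 or 3 of the empty vector. The RNA editing enzyme ADAR fell by 0.25 (adjusted p 0.00521) and the oligoadenylate synthetase OAS3 fell by 0.20 (adjusted p 0.0356), but by library totals neither was called and OAS3 was at 0.05, the opposite sign. ADAR also lost its call without untreated replicate 2, and OAS3 without untreated replicates 2 or 3 or any empty vector library. DHX58, the third receptor of the RIG-I family, had 1 to 11 reads per library and was not tested.

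Among 26 signalling kinases, ubiquitin ligases and factors, 4 were higher and 1 was lower, a share of 19.2% that is near the 19.6% of all genes. Caspase 8 (CASP8) rose from 6.12 ± 1.18 to 11.8 ± 1.38 CPM (0.95, adjusted p 1.7e-05 by edgeR) and was called with each library left out. The NF-kappaB subunit RELA fell by 0.29 from 236 ± 6.95 CPM (adjusted p 0.00139), and was not called by library totals. The ubiquitin ligase RNF115 was at 0.34 (adjusted p 0.0065), and lost its call without untreated replicates 1 or 2. IKBKE, the kinase most like TBK1, was at -0.10 ± 0.14 (adjusted p 0.695).

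Among 20 genes of STING trafficking and its partners at the endoplasmic reticulum, 4 were higher and 2 lower (30.0%, against 19.6% of all tested genes). YIPF5, which helps STING into transport vesicles, rose from 8.89 ± 0.703 to 15.5 ± 2.71 CPM (0.80, adjusted p 3.06e-05 by edgeR), and TMED2, a cargo receptor, rose from 68.1 ± 2.55 to 87.4 ± 11.5 CPM (0.36, adjusted p 0.00108). The coat protein SEC24C (-0.20, adjusted p 0.0178) and the sterol sensor partner SCAP (-0.19, adjusted p 0.0409) were lower, but by library totals both were at the opposite sign (0.04 and 0.06). Both also lost their calls without untreated replicate 1 or empty vector replicates 2 or 3, and SCAP without FOXF1 plasmid replicate 1.

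Among 27 nucleases and brakes of the pathway, 4 were higher and 3 lower (25.9%, against 19.6% of all tested genes). BANF1, which covers DNA and limits the access of cGAS to it, fell by 0.36 on the log2 scale from 304 ± 6.25 CPM (adjusted p 0.000101 by edgeR), and RNASEH2A, a subunit of the nuclease that removes ribonucleotides from DNA, fell by 0.38 from 253 ± 14.6 CPM (adjusted p 8.91e-05). Both held with each library left out and neither was called by library totals. SET, a subunit of a complex of the endoplasmic reticulum that also holds TREX1, rose by 0.41 (adjusted p 0.000653), also with each library left out, with uncertain reads because of near-identical copies. TAX1BP1 (0.55, adjusted p 0.0134) and ITCH (0.36, adjusted p 0.0355), which together limit MAVS signalling, were called but not without untreated replicate 1 or empty vector replicates 2 or 3, nor was ITCH without untreated replicate 3. NLRX1, a mitochondrial protein that restrains MAVS, was at -0.22 (adjusted p 0.0165), at 0.03 by library totals, and lost its call without untreated replicate 1 or empty vector replicates 2 or 3.

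Of the endosomal receptors, which see nucleic acid outside the cytosol, TLR8 had no read, TLR7 and TLR9 had 0 to 1 and TLR3 had 0 to 5. Among the 6 tested genes of that list 2 were lower (33.3%, against 19.6% of all tested genes called in either direction) and none was higher. IRF5 fell by 0.40 from 20.3 ± 0.803 CPM (adjusted p 0.00488 by edgeR), a call that held with each library left out and not by library totals. IRAK1 was at -0.22 (adjusted p 0.0257) and at 0.02 by library totals, and lost its call without untreated replicate 1 or empty vector replicates 2 or 3.

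The output of the pathway, interferons and the genes they induce, was partly silent. IFNB1, IFNA1, IFNA2, IFNL1, IFNL2, IFNL3, IFNK, CXCL9 and CXCL11 had no read in any library, which over all libraries allows a level of up to 0.00871 CPM each, and CXCL10 and IFNE had 0 to 4 reads. Among 24 tested genes of this list 2 were higher and 6 lower (33.3%, against 19.6% of all tested genes). The list also holds the interferon receptors IFNAR1 and IFNAR2 and the kinases JAK1 and TYK2, which are not output. TYK2, at 218 CPM against 253 untreated, is among the 6 lower. In CPM of the library total it was at 236 against 231, and its call ended without either of 2 libraries. IFI6 rose from 17.5 ± 2.29 to 24.9 ± 0.685 CPM (0.51, adjusted p 0.000441 by edgeR) and held with each library left out, while IFIT3 (0.65, adjusted p 0.0484, from 1.82 ± 0.391 CPM) lost its call without untreated replicates 1 or 3, without empty vector replicates 2 or 3, or without any FOXF1 plasmid library. IFITM2 fell by 0.71 from 284 ± 11.9 CPM (adjusted p 3.12e-08), ISG15 by 0.53 from 53.6 ± 3.76 CPM (adjusted p 6.74e-06) and IFITM1 by 0.50 (adjusted p 0.00284), each with every library left out in turn. By library totals only IFITM2 and ISG15 among the 6 lower genes kept their calls. The IFITM genes resemble each other closely, so the split of reads among them is uncertain.

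**Figure D5:**
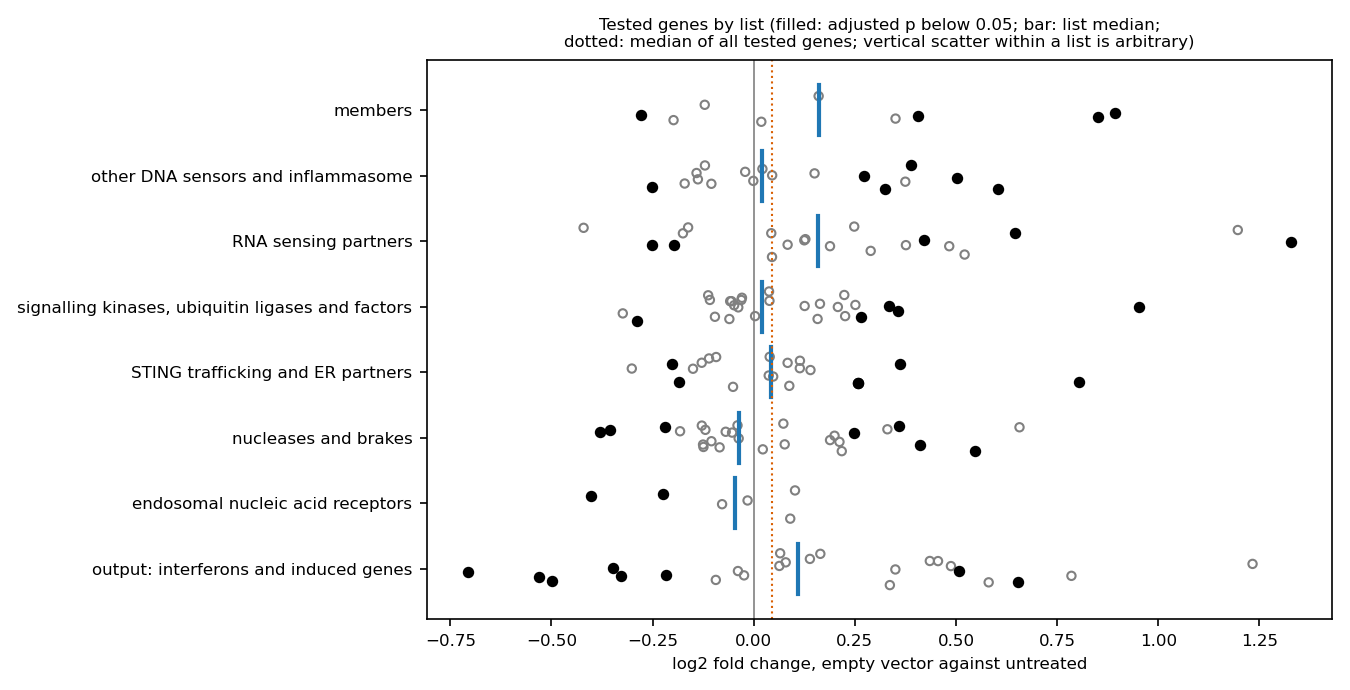
Log2 fold change of each tested gene with the empty vector against untreated cells, by list, filled where the adjusted p was below 0.05, with the list median as a bar and the median of all tested genes as a dotted line. Calls to both sides appear in every list except the endosomal receptors. Of the 8 called genes of the output list 6 are lower, among them the receptor kinase TYK2. By library totals only IFITM2 and ISG15 of these 6 kept their calls.

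With the FOXF1 plasmid 18 of the 140 (12.9%) were called against untreated cells by edgeR's quasi-likelihood test, 10 higher and 8 lower, against 8.52% of all tested genes. By library totals 31 were called, 30 of them higher, a scaling that moved the median of all genes by 0.148 and the share of called genes that were higher from 54.3% to 92.8%. That scaling called 15.3% of all tested genes. CASP8 (0.88, adjusted p 0.000139), IFI6 (0.45, adjusted p 0.00353) and IFITM2 (-0.37, adjusted p 0.000811) were called with each library left out. The other 15 calls were each lost without at least 1 library, and those of HMGB1, DHX9 and TMED2 also by DESeq2. The number called fell to 7 without untreated replicate 1, 8 without untreated replicate 2, and 10, 11 and 7 without FOXF1 plasmid replicates 1, 2 and 3. The shares of all tested genes called in those fits were 5.27%, 4.88%, 6.01%, 5.53% and 5.22% in that order. Named by list, the other 15 were HMGB1 (0.36), then TOMM70A (0.42), DHX9 (0.29), ADAR (-0.28) and OAS3 (-0.23) of RNA sensing, RNF115 (0.29) of signalling, and YIPF5 (0.52), TMED2 (0.25), SURF4 (0.24) and SEC24C (-0.19) of STING trafficking. The rest were the brakes RNASEH2A and NLRX1 (both -0.21), IRF5 (-0.37), and of the output ISG15 (-0.29) and the nuclease ISG20 (0.29).

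Between Fox and Lipo none of the 140 pathway genes was called by edgeR's quasi-likelihood test, where 0.055% of all tested genes were called. Of the 140, 13 passed an unadjusted p below 0.05, a share that was not counted over all tested genes. limma-voom also called none, while DESeq2 called 2, IFITM2 (0.34, adjusted p 0.0311) and IFITM3 (0.31, adjusted p 0.0412). Without a filter on low counts the edgeR test called the same 2 (0.32 and 0.28, adjusted p 0.000924 and 0.00499). Without empty vector replicate 1, the edgeR test called 4, IFITM2 (0.42) and IFITM3 (0.36) higher and EIF2AK2 (-0.37), the kinase PKR, and ITCH (-0.45) lower, and without untreated replicate 1 it called IFITM2 alone. Over all tested genes DESeq2 called 0.122% and the fit without a filter 0.334%. The fit without empty vector replicate 1 called 1.95% of all, and that without untreated replicate 1 called 0.137%. No member of the set of 10 was called there in any of those fits.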

How the data were processed

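Messenger RNA from 9 EPC2 cultures was made into stranded libraries, as the protocols in the labels state. The authors deposited a table of unnormalised read counts for each Ensembl gene and library. Tools named in the submitters' processing notes are bcl2fastq, STAR 2.5.2b and HTSeq, with build GRCh38. The annotation release and the counting strand were not given in the sources used here. Intervals and limits from counts cover counting error only.

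Counts were tested with edgeR 4.0.16 (R 4.3.3). filterByExpr (minimum count 10) kept 16366 genes, and TMM factors scaled library sizes. A quasi-likelihood model with 1 mean per group was fitted to all 9 libraries, with Benjamini-Hochberg adjustment over all tested genes and calls at an adjusted p below 0.05. The SE is the absolute log2 fold change over the square root of F. Merged exon lengths and coordinates come from GENCODE 29, which holds 56591 of the 64253 identifiers. The fits were tested on simulated data.

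The 10 genes and the lists were chosen with earlier results of these data known. Named are the 10, up to 3 called genes per list and direction, genes over or beside a member, listed genes at 0, and 2 nearest profiles per called member; some listed genes are not reported here. IKBKE, DHX58, the other genes with few reads, and the remaining calls with the FOXF1 plasmid or in single alternatives were named after their values were seen. Alternatives were RLE factors, library totals, DESeq2 1.42.0, limma-voom (limma 3.58.1), other filters, only the compared groups, a replicate block, each library left out and, chosen after seeing the data, GC and length offsets.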

Additional observations from a re-analysis of the deposited data

How the results depend on the processing

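Calls of single members under each setting stand with the results. Of the refits of a member's fold change, 438 kept direction and side of the threshold, 11 lost a call, 6 gained one and 25 took the opposite sign. For Lipo against Ctrl, members called numbered 4 in every other setting, 2 with GC and length offsets, and 2 to 4 with a library left out (2 without Ctrl replicates 1 or 3 or Lipo replicates 2 or 3). By library totals the 4 held MAVS in place of IRF3. For Fox against Ctrl there was 1 member by library totals, 1 without a filter on low counts, 1 with GC and length offsets and 0 to 1 with a library left out, and for Fox against Lipo 0 to 0. Pathway genes called for Lipo against Ctrl were 67 by library totals and 23 to 43 with a library left out. For Fox against Ctrl they were 31 and 7 to 24, and for Fox against Lipo 2 by DESeq2, 2 without a filter and 0 to 4 with a library left out. The share of all tested genes called for Lipo against Ctrl was 37% by library totals and 20.7% with GC and length offsets. It was 12.5% to 23.3% with a library left out. For Fox against Ctrl it was 15.3%, 13% and 4.88% to 10.3% in that order, and 5.51% without a filter. For Fox against Lipo it was 0.122% by DESeq2, 0.334% without a filter and 0.00597% to 1.95% with a library left out.

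Deviations of libraries with the same replicate number correlated at -0.09 to 0.084, against -0.08 to 0.131 for different numbers. With 3 libraries per group these values cannot decide whether replicates were paired. A replicate block gave 4, 0 and 0 members and 39, 0 and 23 pathway genes for Lipo against Ctrl, Fox against Lipo and Fox against Ctrl. It called 20.1%, 0.0978% and 9.43% of all tested genes in that order.

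The opposite signs all belonged to values that passed no test as reported. With a library left out, log2 fold changes of Lipo against Ctrl ran from -0.021 to 0.073 for MAVS, -0.478 to 0.031 for TREX1, -0.556 to 0.483 for DDX58 and -0.086 to 0.599 for IFIH1. Those of Fox against Lipo ran from -0.455 to 0.585 for DDX58 and -0.549 to 0.137 for IFIH1, and those of Fox against Ctrl from -0.154 to 0.29 and from -0.263 to 0.273. Signs turned without Ctrl replicate 1 (IFIH1), 2 (TREX1) or 3 (DDX58), Lipo replicate 1 (MAVS), 2 (DDX58) or 3 (IFIH1), and Fox replicate 1 (DDX58), 2 or 3 (DDX58 and IFIH1). In the other settings Lipo against Ctrl gave -0.011 for MAVS with RLE factors and with DESeq2, 0.123 for TMEM173 and 0.059 for TREX1 by library totals, and -0.035 by limma-voom and -0.017 with GC and length offsets for DDX58. Fox against Lipo gave -0.007 for IRF3 by library totals. Fox against Ctrl gave 0.125 for TMEM173 and 0.057 for MAVS by library totals, and for DDX58 -0.046 by limma-voom, -0.011 with the replicate block and -0.02 with GC and length offsets. The cause was not tested. In CPM of the library total, levels moved by over 1 SD for TMEM173 (186, 203 and 203 in Ctrl, Lipo and Fox), MAVS (85.0 and 102 in Ctrl and Lipo) and IRF3 (155 and 152). A filter of 1 CPM removed TREX1 and DDX58, whose 6 to 45 reads per library limit what depth can show.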
